A study of Homo sapiens with 104 samples.

Results

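The untreated expression profiles of TK6 and MT1, a pair of established human lymphoblastoid cell lines, were compared with those of a panel of 24 numbered lymphoblastoid lines. Arrays were chosen by their labels: the 4 untreated arrays of TK6 and MT1 (2 for each line) and the 48 untreated arrays of the panel (2 for each line). Together they are 52 of the 104 arrays of the series. The other arrays came from cells exposed to the methylating agent MNNG and were not used. All cells of the comparison were harvested in mid log growth, without treatment, and the total RNA was labelled with biotin for hybridisation to Affymetrix arrays. The labels name no modified gene or agent in any of these groups, and they do not say how each line was established.

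TK6 is an established line of B-lymphocyte origin that carries a single working copy of the thymidine kinase gene TK1, which is why it is widely used in mutation assays. MT1 was obtained from TK6 by selection for resistance to alkylating agents and is deficient in mismatch repair. These facts come from general knowledge of the lines and not from the labels. TK6 and MT1 therefore have 1 origin, and they were averaged and counted as 1 unit against the 24 panel lines. Nothing in the labels says that duplicate arrays came from separate cultures, or gives an array batch. The p-values below measure the spread between panel lines, and the unit of TK6 and MT1 was assumed to vary as a panel line does.

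Lymphoblastoid lines are usually made by infecting B lymphocytes with Epstein-Barr virus. Viral proteins stand in for signals from the B-cell receptor and from the costimulatory receptor CD40, and they keep the transcription factor NF-kB active. The resulting cells resemble activated B cells: they display HLA class II and costimulatory molecules, secrete immunoglobulin and chemokines, and express many genes that interferon induces. Whether each line studied here carries the virus is not given in the sources used here.

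Expression is given as a level, the log2 of the deposited intensity plus 16, after quantile normalisation of the 52 arrays. The scale ends at 5. A level under 6 (an intensity under 48) is called near the bottom, and a difference that starts or ends there is a lower bound. A gene was tested where at least 2 of the 26 line means reached 7 (an intensity of 112). This left 8624 of 19732 genes, each represented by its brightest probe set. The median level per array was 5.22 to 5.75 in TK6 and MT1 and 5.00 to 6.14 in the panel. Duplicates correlated at 0.98 for TK6, 0.978 for MT1 and 0.952 to 0.997 (median 0.979) for the panel lines, and in 52 of 52 arrays the best match was the other array of the same line.

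TK6 and MT1 stood apart from the panel as a whole. Over the tested genes, pairs of panel lines correlated at 0.853 to 0.97 (median 0.915, 276 pairs). TK6 correlated with panel lines at 0.746 to 0.814 (median 0.784) and MT1 at 0.744 to 0.805 (median 0.771), so neither range met that of the panel pairs. TK6 and MT1 correlated with each other at 0.935. The first principal component of the 26 line means held 26.5% of the variance, with the panel between -18.2 and 8.10, TK6 at 70.1 and MT1 at 74.4. On the second component, with 17.3% of the variance, both lines (19.1 and 17.1) lay within the panel (-30.5 to 26.3). All these correlations are across genes, which are not independent replicates.

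**Figure D1:**
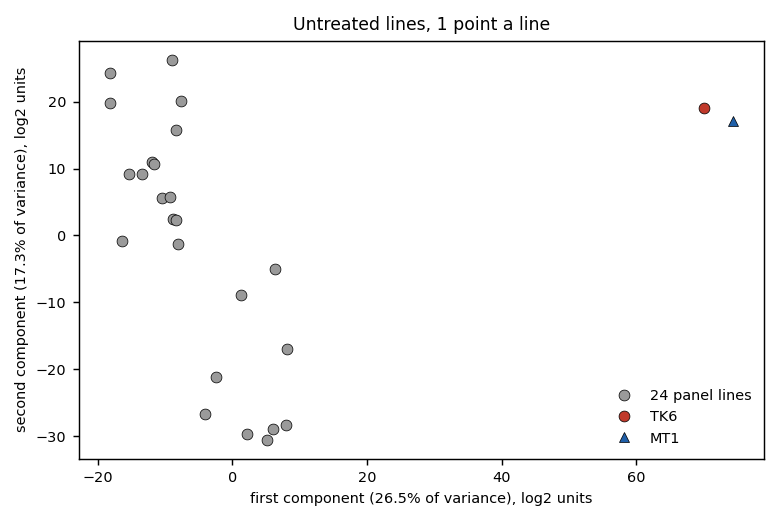
First against second principal component of the 26 untreated line means over the tested genes, in log2 units, 1 point a line. TK6 and MT1 lie at 70.1 and 74.4 on the first component, and the 24 panel lines spread mainly along the second.

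For 1113 of the 8624 genes (12.9%) both TK6 and MT1 lay above the highest panel line, and for 1142 (13.2%) both lay below the lowest. Line means were compared, and 26.1% of genes were thus outside the panel range on the same side. Counting single arrays, all 4 arrays lay above all 48 panel arrays for 642 genes (7.44%) and below them for 712 (8.26%). In limma's test of TK6 and MT1 together against the 24 lines, with Benjamini-Hochberg adjustment over all 8624 genes, 866 genes were higher (10%) and 1001 lower (11.6%) at an adjusted p below 0.05, 21.6% in all. Of these, 285 were at least 2-fold higher and 560 at least 2-fold lower. Below, a gene is called when it passed this test. The range and the test use the same values, so a call is not independent evidence for a gene outside the range. Calls were made for 762 of the genes above the range, for 830 of those below it and for 275 of the 6312 that were not outside it.

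The split between higher and lower depended on the scaling. Of the called genes 46.4% were higher after quantile normalisation, against 35.2% without any normalisation (581 higher, 1070 lower) and 60.7% after subtracting each array's median (915 higher, 593 lower), here called median-centring. The median difference of all genes was -0.018, -0.11 and 0.16 in these settings. Outside the range, 847 genes lay above and 1339 below without normalisation, and 1427 and 746 after median-centring. Of the genes named below, BLNK, PTPN6, GRB2, ISG15, COX5B, SDHC, TTK and MCL1 were not called after median-centring, and CBS, HMOX1 and GBP4 were not called without normalisation. Alone, TK6 gave 2061 called genes (23.9%) and MT1 2218 (25.7%), and 1283 genes were called in all 3 comparisons. The gap, the distance from the panel's extreme line to the nearer of TK6 and MT1, had a median of 0.22 above and 0.29 below the range. It exceeded 1 for 48 genes above and 166 below. At the edge of the range, PILRA lay just above the highest line (a gap of 0.000687) and SLC41A3 just under it (-0.000293, negative inside the range). ANKRD13C lay just below the lowest line (6.04e-05) and ACSL5 just over it (-0.000549). Each of these gaps was smaller than the difference between duplicates.

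The largest gaps lay below the range: for 15 genes that every panel line expressed at 8.48 or more, the gap was 3.12 to 5.07 log2 units. In 12 of the 15 all 4 arrays were near the bottom of the scale. FSCN1, the actin-bundling protein fascin, was at 5.23 and 5.27 in TK6, 5.16 and 5.25 in MT1 and 10.32 to 11.73 (median 11.05) in the panel. TK6 and MT1 were both at the bottom and the difference was -5.89 ± 0.37 (SE; adjusted p = 1.91e-11), at least 59.5-fold. Other differences are given in the same form, TK6 and MT1 minus the panel mean, with the SE. APBB1IP, an effector of the small GTPase Rap1 in integrin activation, was at 5.24 and 5.24 in TK6, 5.29 and 5.31 in MT1 and 9.35 to 10.39 (median 9.95) in the panel, -4.64 ± 0.25 (adjusted p = 5.5e-13). LCK, a Src-family kinase of lymphocytes, was at 5.26 and 5.25 in TK6, 5.20 and 5.29 in MT1 and 9.25 to 10.60 (median 10.03) in the panel, -4.75 ± 0.33 (adjusted p = 6.64e-11). No array of TK6 or MT1 came near any panel line for these 3 genes.

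Several of the others are surface receptors or act in B-cell signalling. The Fc receptor for IgM, FCMR, was at 5.23 and 5.40 in TK6, 5.12 and 5.27 in MT1 and 9.03 to 11.16 (median 10.23) in the panel. The adhesion molecule ICAM3 was at 5.37 and 5.23 in TK6, 5.28 and 5.30 in MT1 and 8.89 to 10.34 (median 9.77) in the panel. The receptor SLAMF7 was at 5.26 and 5.24 in TK6, 5.31 and 5.33 in MT1 and 8.64 to 10.77 (median 10.23) in the panel, and the small surface glycoprotein CD52 at 6.14 and 5.90 in TK6, 5.22 and 5.33 in MT1 and 9.26 to 11.35 (median 10.65) in the panel. All 4 arrays lay more than 3 log2 units below the lowest panel line for each of these. TNFRSF17, the receptor BCMA that sustains plasma cells, was at 5.77 and 5.96 in TK6, 5.92 and 6.04 in MT1 and 9.19 to 11.10 (median 10.01) in the panel. FCRLA, a B-cell protein of the Fc receptor family, was at 6.16 and 5.98 in TK6, 5.31 and 5.33 in MT1 and 9.36 to 11.00 (median 10.29) in the panel, and RASGRP3, an activator of Ras downstream of the B-cell receptor, at 5.35 and 5.37 in TK6, 5.17 and 5.37 in MT1 and 8.48 to 10.17 (median 9.17) in the panel. Among the rest were NCF1, a subunit of the phagocyte oxidase (-4.49 ± 0.41), DOCK8, an exchange factor for the GTPase Cdc42 (-4.06 ± 0.26), the phosphatase regulator PPP1R16B (-4.30 ± 0.28), the lipase MGLL (-3.78 ± 0.30) and the focal adhesion protein TES (-4.18 ± 0.42). Each of the 15 was called, with an adjusted p of 1.12e-06 for FCMR as the largest.

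**Figure D2:**
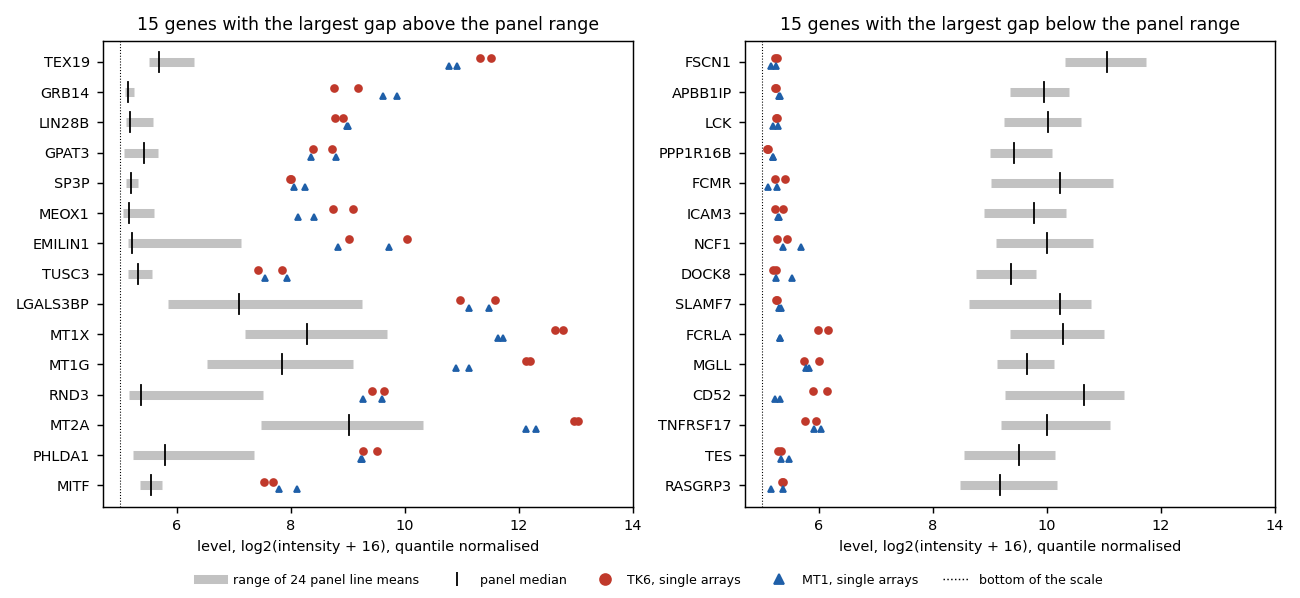
Level, log2 of intensity plus 16, of the 15 genes with the largest gap above (left) and below (right) the panel range. Grey bars span the 24 panel line means, the tick is their median, points are single arrays of TK6 and MT1, and the dotted line is the bottom of the scale. On the right the points crowd at the bottom while the bars begin at 8.48 or higher, and on the left 11 of 15 genes have a panel median near the bottom.

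Genes further down this order were of varied kinds. CHFR, a ubiquitin ligase of a checkpoint at entry into mitosis, was at 5.24 and 5.22 in TK6, 5.26 and 5.19 in MT1 and 7.86 to 8.65 (median 8.28) in the panel, -3.03 ± 0.22 (adjusted p = 1.56e-10). VAMP8, a protein of vesicle fusion, was measured well above the bottom at 7.61 and 7.39 in TK6, 7.47 and 7.53 in MT1 and 9.83 to 10.59 (median 10.27) in the panel, so its difference of -2.75 ± 0.19 (6.74-fold lower) is not a bound. TCL1A, an activator of the kinase Akt in B cells, was at 5.52 and 5.67 in TK6, 5.49 and 5.43 in MT1 and 7.87 to 11.96 (median 10.44) in the panel. Both CHFR and VAMP8 were chosen for naming after their values were seen. Of the 1142 genes below the range, 409 had the line mean of TK6, of MT1 or of both near the bottom. For 481 of the 1142 another probe set of the same gene was measured. All of these probe sets lay below the range too for 246 genes, and at least 1 lay above it for 7.

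Genes of B-cell identity lay low as a group. Of 31 tested genes of this list, 15 were called lower and 0 higher, 14 lay below the panel range (45.2%, against 13.2% of all genes), and the median difference was -1.39 (-1.55 to -1.01 over the alternatives), against -0.018 for all genes. MS4A1, which encodes the surface protein CD20, was at 11.29 and 11.14 in TK6, 6.41 and 6.32 in MT1 and 11.56 to 12.74 (median 12.53) in the panel. TK6 lay just below the panel and MT1 far below it, and together the difference was -3.65 ± 0.27 (adjusted p = 1.68e-10). PAX5, the transcription factor that holds B-cell identity, was lower by less, at 9.90 and 9.61 in TK6, 10.08 and 9.80 in MT1 and 10.24 to 11.11 (median 10.61) in the panel, -0.77 ± 0.18 (adjusted p = 0.00351). The call of PAX5 ended after median-centring, where the difference was -0.37.

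Other regulators of the list lay lower too. SPIB, a transcription factor of the Ets family, was at 7.41 and 7.73 in TK6, 6.97 and 7.38 in MT1 and 8.24 to 9.75 (median 9.13) in the panel, and the Ikaros-family factor IKZF3 at 6.52 and 6.55 in TK6, 7.27 and 7.03 in MT1 and 8.30 to 9.97 (median 9.27) in the panel. POU2F2, which encodes the octamer-binding factor OCT2, was at 7.38 and 7.41 in TK6, 6.29 and 6.21 in MT1 and 7.77 to 8.77 (median 8.35) in the panel. For all 3 every array of TK6 and MT1 lay below every panel line mean. The receptors CD27 (-3.92 ± 0.83) and TNFRSF13B (-2.41 ± 0.34) were also called lower. In contrast, EBF1, an early determinant of the B lineage, lay above the range at 10.01 and 9.68 in TK6, 9.52 and 9.19 in MT1 and 5.25 to 9.16 (median 8.17) in the panel but did not pass the test (adjusted p = 0.173). CD79A, a chain of the B-cell receptor, overlapped the panel at 10.13 and 10.46 in TK6, 10.23 and 10.50 in MT1 and 10.31 to 10.97 (median 10.68) in the panel, with an adjusted p of 0.136. CD22 was at 9.43 and 9.81 in TK6, 7.67 and 7.89 in MT1 and 8.35 to 9.91 (median 9.22) in the panel, within the range in TK6 and under it in MT1.

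The signalling chain of the B-cell receptor gave 16 called lower and 0 higher of 29 tested, with 15 below the range (51.7%) and a median of -0.84. The kinases were BTK, at 8.25 and 8.12 in TK6, 7.86 and 7.77 in MT1 and 8.80 to 9.41 (median 9.01) in the panel, -1.06 ± 0.18 (adjusted p = 0.000103), and BLK, at 5.23 and 5.32 in TK6, 5.24 and 5.39 in MT1 and 6.06 to 9.18 (median 8.38) in the panel, -2.67 ± 0.89 (adjusted p = 0.0322). BTK was expressed in all lines, while BLK was near the bottom in all 4 arrays of TK6 and MT1. The call of BLK ended under 4 of 44 alternatives, a pseudocount of 64 among them. Of the adaptors, BLNK was at 10.18 and 10.06 in TK6, 8.62 and 8.65 in MT1 and 10.25 to 11.39 (median 10.76) in the panel, LAT2 at 9.01 and 9.08 in TK6, 7.15 and 7.26 in MT1 and 9.74 to 10.31 (median 10.00) in the panel and GRB2 at 9.82 and 9.90 in TK6, 9.61 and 9.78 in MT1 and 10.04 to 10.70 (median 10.30) in the panel. Both lines lay below the panel for all 3, and the difference from the panel mean was smallest for GRB2 (-0.55 ± 0.17). The inhibitory side was lower as well: the receptor FCGR2B was at 7.22 and 6.89 in TK6, 5.30 and 5.42 in MT1 and 8.27 to 9.98 (median 9.13) in the panel, the phosphatase PTPN6 at 9.51 and 9.83 in TK6, 8.58 and 8.96 in MT1 and 9.72 to 10.95 (median 10.59) in the panel, and the adaptor DOK3 at 5.89 and 5.90 in TK6, 5.19 and 5.33 in MT1 and 8.14 to 10.17 (median 9.17) in the panel. For PTPN6 1 array of TK6 reached into the panel, and for the other 2 none did. PTPRC, the phosphatase CD45, was at 7.53 and 7.26 in TK6, 8.07 and 7.84 in MT1 and 8.57 to 11.04 (median 10.17) in the panel, -2.44 ± 0.57 (adjusted p = 0.00285). The phospholipase PLCG2 was at 10.15 and 9.98 in TK6, 8.09 and 8.05 in MT1 and 9.80 to 11.08 (median 10.49) in the panel, within the panel in TK6 and under it in MT1, and was called lower (-1.38 ± 0.29).

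Activation and costimulation gave 12 called lower and 0 higher of 32 tested, with 11 below the range (34.4%), 1 above it and a median of -0.74. CD44, the hyaluronan receptor, was at 5.25 and 5.23 in TK6, 7.63 and 7.93 in MT1 and 9.40 to 11.98 (median 10.88) in the panel. TK6 was at the bottom and MT1 between the bottom and the panel, and the difference was -4.30 ± 0.63 (adjusted p = 1.92e-05). SLAMF1 was at 5.59 and 5.97 in TK6, 6.89 and 6.87 in MT1 and 8.86 to 10.84 (median 10.09) in the panel, BTLA, an inhibitory receptor, at 5.25 and 5.31 in TK6, 5.13 and 5.33 in MT1 and 7.48 to 9.83 (median 9.08) in the panel, and CD58, the ligand of CD2, at 9.68 and 9.61 in TK6, 9.69 and 9.70 in MT1 and 10.41 to 11.32 (median 10.63) in the panel. These 3 lay below every panel line in all 4 arrays. CD70, a ligand of CD27, lay above the range at 10.77 and 10.91 in TK6, 10.58 and 10.77 in MT1 and 9.70 to 10.61 (median 10.06) in the panel, and did not pass (adjusted p = 0.0526). CD40 was within the range at 8.39 and 8.43 in TK6, 8.83 and 8.86 in MT1 and 8.31 to 9.52 (median 9.16) in the panel.

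Host genes associated with Epstein-Barr virus gave 11 called lower and 0 higher of 30 tested, with 10 below the range (33.3%), 2 above it and a median of -0.82. CR2, the receptor CD21 through which the virus enters, was at 5.21 and 5.32 in TK6, 5.11 and 5.27 in MT1 and 7.11 to 11.01 (median 9.27) in the panel, -3.91 ± 1.14 (adjusted p = 0.0149). TRAF1, an adaptor that the viral protein LMP1 binds and that NF-kB induces, was at 7.08 and 7.38 in TK6, 7.19 and 7.50 in MT1 and 8.28 to 10.32 (median 9.25) in the panel, -2.03 ± 0.56 (adjusted p = 0.0107). All 4 arrays lay below the panel for both, at the bottom for CR2 and well above it for TRAF1. FCER2, the receptor CD23, was at 10.31 and 10.65 in TK6, 7.35 and 7.51 in MT1 and 8.13 to 11.42 (median 10.68) in the panel, within the range in TK6 and below it in MT1. EBI3, a cytokine subunit named for its induction by the virus, was within the range at 9.05 and 9.25 in TK6, 10.33 and 10.54 in MT1 and 8.69 to 10.96 (median 9.98) in the panel. The intermediate filament VIM was above the range at 12.45 and 12.61 in TK6, 12.42 and 12.51 in MT1 and 7.87 to 12.34 (median 11.43) in the panel, with an adjusted p of 0.451.

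NF-kB subunits and targets gave 11 called lower and 0 higher of 32 tested, with 12 below the range (37.5%), 0 above it and a median of -0.75. The chemokine CCL22 was at 5.57 and 5.53 in TK6, 5.88 and 6.60 in MT1 and 8.71 to 12.47 (median 10.91) in the panel, -4.90 ± 1.15 (adjusted p = 0.00307). The cytokines LTA and LTB were at 6.07 and 6.50 and 6.21 and 6.21 in TK6 and at 5.10 and 5.44 and 5.61 and 5.58 in MT1, against panel levels of 8.15 to 10.79 (median 9.04) and 7.30 to 10.52 (median 9.40). BCL2A1, a survival protein of the BCL2 family, was at 8.46 and 8.54 in TK6, 8.61 and 8.78 in MT1 and 9.97 to 11.55 (median 10.82) in the panel, -2.17 ± 0.39 (adjusted p = 0.00021). Every array of TK6 and MT1 was below every panel line mean for these 4. TNF was at 5.94 and 6.17 in TK6, 6.71 and 6.95 in MT1 and 7.30 to 8.79 (median 8.01) in the panel. The subunit NFKB1 was at 8.83 and 9.05 in TK6, 9.49 and 9.65 in MT1 and 8.94 to 9.56 (median 9.24) in the panel, the mean of TK6 under and that of MT1 over the panel range. A form of the NF-kB site (GGGA, any base and TTTCC), searched on both strands, was present within 250 bases before a listed start in 2 of the 11 targets below the range that had a promoter (LTB and CYLD), against 0.645% of all 27305 genes with a promoter. Matches were not counted for the list members that were not below the range, so they cannot be set against the levels.

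The germinal centre list had 7 called lower and 0 higher of 16, with 8 below the range (50%) and a median of -1.15, which was -0.017 without the filter on low levels. The receptor S1PR2, which confines B cells to germinal centres, was at 6.28 and 6.06 in TK6, 5.79 and 5.45 in MT1 and 6.56 to 7.61 (median 6.96) in the panel, and the adaptor STAP1 at 5.18 and 5.16 in TK6, 5.21 and 5.37 in MT1 and 6.78 to 9.90 (median 8.67) in the panel. MEF2C, a transcription factor, was at 8.89 and 8.82 in TK6, 9.20 and 9.20 in MT1 and 9.83 to 11.15 (median 10.77) in the panel. The plasma cell list had 10 called lower and 0 higher of 20, with 9 below the range (45%) and a median of -0.88. JCHAIN, which joins IgM and IgA into polymers, was at 5.24 and 5.26 in TK6, 5.10 and 5.33 in MT1 and 7.54 to 12.43 (median 10.74) in the panel, -5.32 ± 1.20 (adjusted p = 0.00206). The transcription factor IRF4 was at 10.03 and 10.23 in TK6, 10.03 and 10.21 in MT1 and 10.45 to 11.59 (median 11.11) in the panel, and the chaperone FKBP11 at 6.90 and 6.76 in TK6, 7.12 and 7.16 in MT1 and 8.68 to 10.83 (median 9.71) in the panel. All 4 arrays lay below the panel for S1PR2, STAP1, MEF2C, JCHAIN and FKBP11. The call of IRF4 (adjusted p = 0.0395) ended under 8 of 44 alternatives, among them without the first array of TK6. Of 9 tested immunoglobulin genes only JCHAIN was called, 11.1% against 11.6% of all genes called lower. The differences of all 9 were negative, with a median of -0.67. Below the range lay 2 of them (22.2%, against 13.2% of all genes), with all 4 arrays near the bottom.

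Antigen presentation divided by class. The HLA class II list had 11 called lower and 1 higher of 18, with 10 below the range (55.6%) and a median of -0.69. Among its peptide-loading and processing genes, HLA-DMA was at 8.01 and 8.08 in TK6, 9.14 and 9.05 in MT1 and 9.89 to 11.29 (median 10.66) in the panel, HLA-DOB at 5.44 and 5.46 in TK6, 6.31 and 5.90 in MT1 and 6.58 to 9.65 (median 8.95) in the panel, and the protease LGMN at 5.36 and 5.23 in TK6, 5.10 and 5.27 in MT1 and 6.87 to 10.66 (median 9.25) in the panel. All arrays of both lines lay below the panel for these 3. HLA-DRA was within the panel at 12.67 and 12.64 in TK6, 12.69 and 12.70 in MT1 and 12.45 to 13.06 (median 12.92) in the panel, HLA-DPB1 was below it at 10.93 and 11.08 in TK6, 10.88 and 10.89 in MT1 and 11.50 to 12.38 (median 11.97) in the panel, and the invariant chain CD74 overlapped it at 11.92 and 12.59 in TK6, 11.92 and 12.68 in MT1 and 12.53 to 13.28 (median 12.97) in the panel. The call of CD74 ended after median-centring and without the first array of every line. Of the 24 genes of class I and its peptide loading, 1 was called lower (the immunoproteasome subunit PSMB9, -0.99 ± 0.34, not called under 4 of 44 alternatives) and 0 higher. Below the range were 2 (8.33%, against 13.2% of all genes). HLA-B was at 12.40 and 12.51 in TK6, 12.62 and 12.64 in MT1 and 12.38 to 12.71 (median 12.58) in the panel and B2M at 12.90 and 12.88 in TK6, 13.02 and 13.01 in MT1 and 12.91 to 13.18 (median 13.04) in the panel.

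The interferon-stimulated list had the lowest median of those tested, -2.20 over 47 genes (-2.58 to -1.77 over the alternatives). Of these 27 were called lower and 2 higher, 23 lay below the panel range (48.9%) and 2 above it, and for 9 of the 23 all 4 arrays were near the bottom. The panel itself varied widely in these genes. MX1, a GTPase that blocks influenza and other viruses, was at 5.27 and 5.31 in TK6, 5.87 and 5.45 in MT1 and 7.99 to 11.99 (median 11.25) in the panel, -5.59 ± 0.75 (adjusted p = 5.48e-06). ISG15, a ubiquitin-like modifier, was at 7.49 and 7.58 in TK6, 7.58 and 7.58 in MT1 and 7.85 to 12.75 (median 11.10) in the panel, -3.30 ± 1.12 (adjusted p = 0.0362). ISG20, an RNA exonuclease, was at 6.24 and 5.94 in TK6, 6.56 and 6.66 in MT1 and 7.90 to 11.17 (median 9.77) in the panel, and EPSTI1 at 6.06 and 6.06 in TK6, 6.65 and 6.38 in MT1 and 7.36 to 10.04 (median 9.02) in the panel. For all 4 genes TK6 and MT1 lay below every panel line in every array, although the lowest panel lines were far from the panel median.

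The transcription factors that carry the interferon signal were measured too. IRF9, which binds DNA in the complex that type I interferon activates, was at 6.63 and 6.65 in TK6, 6.91 and 6.92 in MT1 and 8.35 to 9.47 (median 9.13) in the panel, -2.33 ± 0.25 (adjusted p = 1.91e-07). IRF7, which drives interferon genes in lymphoid cells, was at 6.92 and 6.76 in TK6, 6.43 and 6.46 in MT1 and 7.98 to 11.24 (median 10.23) in the panel, -3.49 ± 0.61 (adjusted p = 0.000174). Both lay below the panel by more than 1 log2 unit in each array. TLR7, a sensor of RNA upstream of IRF7, was at 5.19 and 5.18 in TK6, 5.19 and 5.19 in MT1 and 7.24 to 9.65 (median 8.34) in the panel. The DNA sensor IFI16, named after its values were seen, was at 8.28 and 8.23 in TK6, 7.78 and 7.78 in MT1 and 9.91 to 11.95 (median 11.15) in the panel. Not all genes of the list followed: IFIT3 was at 10.23 and 10.35 in TK6, 10.09 and 10.34 in MT1 and 7.59 to 11.90 (median 10.29) in the panel and IFITM3 at 9.77 and 9.69 in TK6, 10.03 and 9.64 in MT1 and 8.02 to 11.91 (median 10.56) in the panel, both within the range. LGALS3BP, a secreted glycoprotein, went the other way at 10.97 and 11.57 in TK6, 11.12 and 11.47 in MT1 and 5.86 to 9.25 (median 7.09) in the panel, 3.95 ± 0.88 (adjusted p = 0.00187), as did the mean of the GTPase GBP4 (3.04 ± 1.04, adjusted p = 0.0381).

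**Figure D3:**
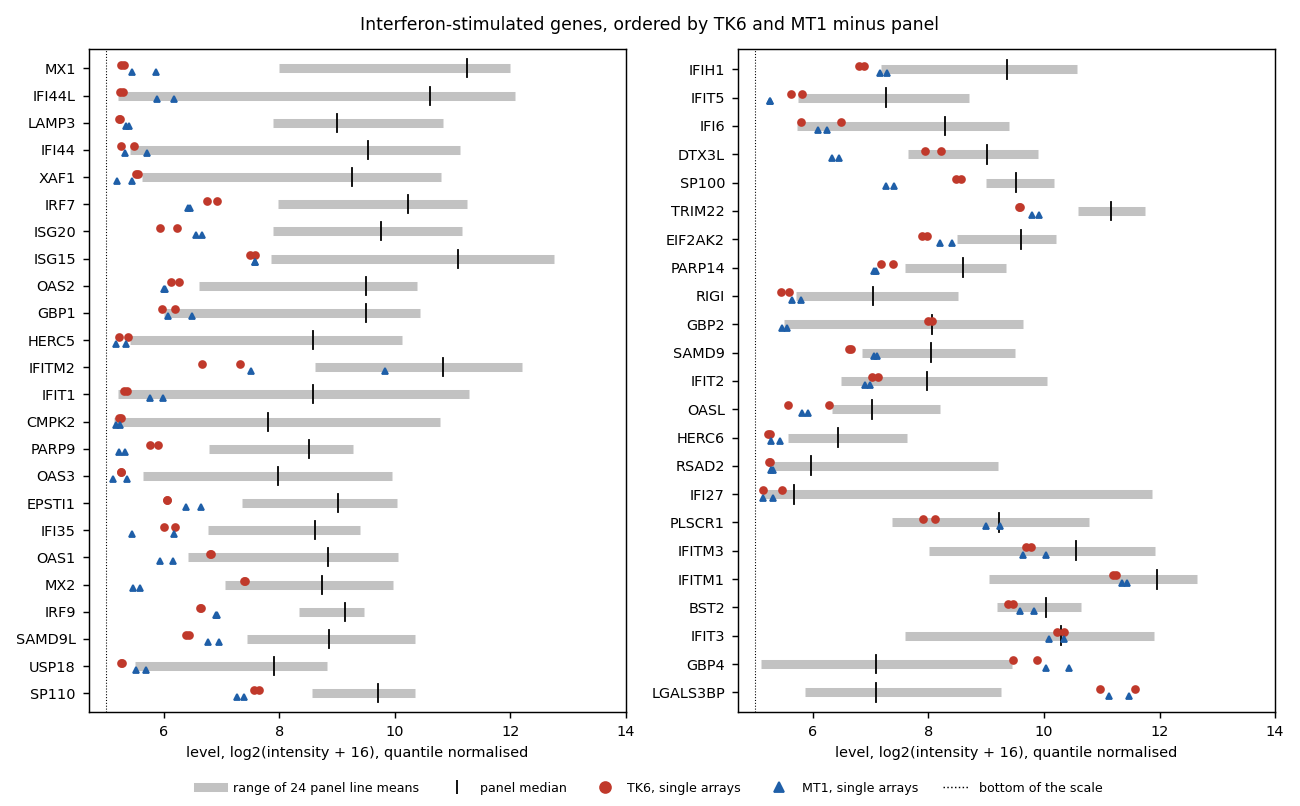
Level, log2 of intensity plus 16, of the 47 tested interferon-stimulated genes, ordered by the difference of TK6 and MT1 from the panel. Grey bars span the 24 panel line means, the tick is their median, points are single arrays, and the dotted line is the bottom of the scale. TK6 and MT1 lie left of most panel medians, below the bar in 23 genes, and above it in GBP4 and LGALS3BP.

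Interferon-stimulated genes are bound by the IRF9 complex at a response element whose core is GAAA, any 2 bases and GAAA again. It was searched on both strands in the 250 bases before each listed start, and overlapping matches were counted. Of the genes below the range, 9 of the 18 with a promoter held a match, and of those not below it 15 of 19 did, against 3.71% of all 27305 genes with a promoter and 3.88% of 7186 tested genes. The share was smaller among the genes below the range than among the others of the list, and this difference was not tested. The stretches that end at the start of transcription are shown for 3 genes that lay below the panel in every array, because ISG15 holds overlapping matches and the others a single one. They are from RefSeq (GRCh38.p14), 5′ to 3′ on the gene's strand, with matches in capitals: ISG15 at chr1:1013377-1013496 on the plus strand, ISG20 at chr15:88638896-88639015 on the plus strand and EPSTI1 at chr13:42992242-42992361 on the minus strand.
ISG15: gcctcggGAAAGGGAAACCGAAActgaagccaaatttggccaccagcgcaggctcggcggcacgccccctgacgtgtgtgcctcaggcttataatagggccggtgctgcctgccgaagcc
ISG20: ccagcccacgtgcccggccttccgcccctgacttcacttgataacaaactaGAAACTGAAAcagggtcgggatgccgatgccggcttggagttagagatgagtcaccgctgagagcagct
EPSTI1: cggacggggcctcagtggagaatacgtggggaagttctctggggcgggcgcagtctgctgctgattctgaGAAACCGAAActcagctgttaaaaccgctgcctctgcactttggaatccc
A match is a description of the letters and not a measured site.

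Cytokines, their receptors and adhesion molecules were mixed. Of 24 chemokines and cytokines 8 were called lower and 0 higher, with 7 below the range (29.2%, against 13.2% of all genes). CCL4, a chemokine for T cells and monocytes, was at 5.87 and 6.13 in TK6, 5.61 and 5.48 in MT1 and 6.94 to 12.25 (median 10.29) in the panel. Of 32 receptors 5 were called lower (15.6%) and 1 higher (3.12%), against 11.6% and 10% of all genes. The scavenging chemokine receptor ACKR3 was the higher one, at 10.36 and 10.20 in TK6, 9.85 and 9.64 in MT1 and 5.66 to 8.89 (median 7.31) in the panel, 2.82 ± 0.84 (adjusted p = 0.0165). IL2RB, a chain of the receptors for IL-2 and IL-15, was at 8.81 and 8.90 in TK6, 9.17 and 9.13 in MT1 and 9.69 to 10.70 (median 10.20) in the panel, and its call ended after median-centring. Of 25 adhesion genes and integrins 4 were called lower (16%) and 1 higher (4%), so the lower share was near that of all genes. ALCAM, a ligand of CD6, was at 8.51 and 8.47 in TK6, 6.69 and 6.51 in MT1 and 9.09 to 10.17 (median 9.69) in the panel. All arrays of TK6 and MT1 were outside the panel for these 4 named genes.

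Above the panel range, the largest gaps belonged to genes that most panel lines barely expressed. In 11 of the 15 with the largest gap the panel median was near the bottom, and in 7 every panel line was. TEX19, a protein of germ cells and early embryos, was at 11.32 and 11.50 in TK6, 10.78 and 10.92 in MT1 and 5.51 to 6.30 (median 5.69) in the panel, 5.38 ± 0.27 (adjusted p = 1.47e-13), at least 41.6-fold higher. LIN28B, an RNA-binding protein that blocks maturation of the microRNA let-7, was at 8.78 and 8.92 in TK6, 9.01 and 8.98 in MT1 and 5.11 to 5.58 (median 5.17) in the panel, 3.73 ± 0.29 (adjusted p = 6.03e-10). GRB14, an adaptor that restrains the insulin receptor, was at 9.19 and 8.76 in TK6, 9.87 and 9.61 in MT1 and 5.09 to 5.26 (median 5.15) in the panel, 4.20 ± 0.29 (adjusted p = 5.63e-11). For these 3 genes no panel line reached a level of 7, and they passed the filter only through TK6 and MT1, as did 91 of the 1113 genes above the range, among them MEOX1, MITF, GPAT3, TUSC3, SP3P, SERPINH1, SPA17 and HBE1. Such genes had to differ from the panel, so their calls are no support.

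The others covered unrelated functions. MEOX1, a homeobox factor, was at 8.74 and 9.09 in TK6, 8.13 and 8.40 in MT1 and 5.06 to 5.61 (median 5.17) in the panel, and MITF, the master regulator of melanocytes, at 7.69 and 7.53 in TK6, 8.10 and 7.79 in MT1 and 5.36 to 5.75 (median 5.54) in the panel. GPAT3, an enzyme of triglyceride synthesis, was at 8.39 and 8.72 in TK6, 8.35 and 8.80 in MT1 and 5.08 to 5.68 (median 5.43) in the panel. EMILIN1, a glycoprotein of elastic fibres, was at 9.02 and 10.04 in TK6, 8.83 and 9.72 in MT1 and 5.15 to 7.12 (median 5.22) in the panel. All 4 arrays lay above the panel for each. TUSC3, a subunit of the oligosaccharyltransferase (2.36 ± 0.28), the small GTPase RND3 (3.87 ± 0.65), PHLDA1 (3.35 ± 0.63) and the pseudogene SP3P (2.88 ± 0.29) completed the genes without a common family, and for PHLDA1 3 further probe sets lay above the range as well. KRT8, a keratin of simple epithelia, was at 9.98 and 9.70 in TK6, 9.73 and 9.54 in MT1 and 6.25 to 7.80 (median 7.42) in the panel, 2.45 ± 0.43 (adjusted p = 0.000158). The decoy receptor TNFRSF10D, which binds the death ligand TRAIL without passing on its signal, was at 8.90 and 8.86 in TK6, 8.73 and 8.68 in MT1 and 5.32 to 7.12 (median 5.71) in the panel. Over all genes above the range, 470 had another probe set; of these, all lay above it for 294 genes, and at least 1 lay below it for 2.

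Metallothioneins, small proteins that bind zinc, copper and cadmium, stood out among the genes above the range. They were gathered as a group after their values were seen. Their gene symbols begin with MT1 or MT2 and have nothing to do with the name of the line MT1. Of 8 tested genes, with their regulator MTF1, 5 were above the range in every array and called higher, and 0 were called lower. MT2A was at 13.03 and 12.97 in TK6, 12.30 and 12.13 in MT1 and 7.47 to 10.31 (median 9.02) in the panel, 3.46 ± 0.89 (adjusted p = 0.00622). MT1X was at 12.64 and 12.78 in TK6, 11.63 and 11.71 in MT1 and 7.20 to 9.69 (median 8.29) in the panel, 3.77 ± 0.78 (adjusted p = 0.000999), and MT1G at 12.19 and 12.12 in TK6, 11.13 and 10.89 in MT1 and 6.54 to 9.08 (median 7.84) in the panel, 3.65 ± 0.73 (adjusted p = 0.000709). TK6 was the higher of both lines for each, and the lower of them, MT1, still lay above the highest panel line in both arrays. MT1H (3.33 ± 0.85) and MT1HL1 (3.43 ± 0.88) were also higher. These genes are near-identical copies, and probe sets may not tell them apart.

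The remaining members differed less. MT1F was within the range at 9.32 and 9.13 in TK6, 8.63 and 8.51 in MT1 and 6.07 to 9.61 (median 7.97) in the panel, and MT1E at 5.84 and 7.91 in TK6, 8.38 and 8.09 in MT1 and 7.70 to 8.53 (median 7.94) in the panel, where 1 TK6 array was low and the other was not. MTF1, the zinc-sensing factor that induces metallothioneins, was at 6.71 and 6.61 in TK6, 7.03 and 6.96 in MT1 and 6.94 to 7.68 (median 7.35) in the panel and did not pass (adjusted p = 0.126). The zinc exporter SLC30A1, another target of MTF1, named after its values were seen, was above the range at 9.98 and 9.65 in TK6, 9.36 and 9.18 in MT1 and 7.21 to 8.36 (median 7.82) in the panel, 1.72 ± 0.25 (adjusted p = 1.72e-05).

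MTF1 binds metal response elements with the core TGCACNC or TGCGCNC. At least 3 matches on either strand lay in the 250 bases before a listed start in 3 of the 3 metallothioneins above the range that had a promoter (of 5), against 1.94% of all 27305 genes and 3.09% of 7186 tested genes. MT1H had 8, MT2A 7 and MT1X 4, and MTF1 itself 0. MT1E and MT1F, the tested metallothioneins not above the range, had no promoter to search. The matches therefore cannot be set against the levels within the family, and they describe copies of a group chosen after its values were seen. Stretches before their starts are shown because the spacing and orientation of the matches differ between the copies. They are from RefSeq (GRCh38.p14), all on the plus strand, 5′ to 3′, with matches on either strand in capitals: MT2A at chr16:56608384-56608583, MT1X at chr16:56682310-56682469 and MT1H at chr16:56669634-56669813.
MT2A: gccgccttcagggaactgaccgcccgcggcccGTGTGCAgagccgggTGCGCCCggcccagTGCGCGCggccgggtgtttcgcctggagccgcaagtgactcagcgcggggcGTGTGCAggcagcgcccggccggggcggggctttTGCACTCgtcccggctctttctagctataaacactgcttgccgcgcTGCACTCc
MT1X: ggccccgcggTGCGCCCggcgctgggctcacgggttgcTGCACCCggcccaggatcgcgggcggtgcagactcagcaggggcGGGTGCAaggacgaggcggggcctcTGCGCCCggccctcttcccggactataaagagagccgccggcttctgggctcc
MT1H: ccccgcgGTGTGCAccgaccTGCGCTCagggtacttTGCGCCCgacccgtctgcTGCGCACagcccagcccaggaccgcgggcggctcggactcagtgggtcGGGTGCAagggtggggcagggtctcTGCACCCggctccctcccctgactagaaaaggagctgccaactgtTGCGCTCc
The stretch of MT2A shows 6 of its matches and that of MT1H 7.

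Genes of the NRF2 response to oxidants were higher in part. Of 38 genes for this response, glutathione and drug metabolism, 10 were called higher and 3 lower, and 12 lay above the range (31.6%) and 4 below it, with a median of -0.0054 that was 0.23 after median-centring. NQO1, a quinone reductase and classic target of NRF2, was at 10.70 and 11.02 in TK6, 9.79 and 10.21 in MT1 and 6.92 to 8.50 (median 7.68) in the panel, 2.79 ± 0.43 (adjusted p = 3.57e-05). GCLM, a subunit of the enzyme that begins glutathione synthesis, was at 9.02 and 9.12 in TK6, 9.36 and 9.65 in MT1 and 7.08 to 8.29 (median 7.70) in the panel, 1.53 ± 0.31 (adjusted p = 0.000831). The thioredoxin reductase TXNRD1 was at 10.29 and 10.24 in TK6, 10.47 and 10.27 in MT1 and 8.94 to 9.58 (median 9.25) in the panel, and HMOX1, which breaks down haem, at 8.22 and 8.26 in TK6, 8.25 and 8.65 in MT1 and 5.78 to 7.87 (median 6.62) in the panel. Every array of TK6 and MT1 was above every panel line for these 4. KEAP1, the inhibitor of NRF2, was above the range as well, at 8.33 and 8.61 in TK6, 8.54 and 8.78 in MT1 and 7.38 to 8.06 (median 7.77) in the panel. In contrast, the glutathione transferase family member MGST2 was at 5.32 and 5.63 in TK6, 5.62 and 5.36 in MT1 and 6.60 to 8.32 (median 7.60) in the panel and the dehydrogenase ALDH2 at 5.39 and 5.42 in TK6, 5.46 and 5.76 in MT1 and 5.99 to 9.77 (median 8.78) in the panel, both below the range. The call of ALDH2 (adjusted p = 0.045) ended under 13 of 44 alternatives, 8 of them with a single panel line left out.

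The amino acid response, which ATF4 drives when amino acids run short, had 10 called higher and 0 lower of 34, with 10 above the range (29.4%) and a median of 0.85 (0.75 to 1.08 over the alternatives). The medians of the lines were 1.06 for TK6 and 0.33 for MT1. CEBPB, a partner of ATF4, was at 10.24 and 10.41 in TK6, 9.41 and 9.62 in MT1 and 6.62 to 8.18 (median 7.22) in the panel, 2.63 ± 0.37 (adjusted p = 9.6e-06). TRIB3, a pseudokinase induced by ATF4, was at 10.11 and 10.13 in TK6, 9.20 and 9.15 in MT1 and 7.60 to 8.70 (median 8.07) in the panel, 1.49 ± 0.31 (adjusted p = 0.000995). The asparaginyl-tRNA synthetase NARS1 was at 11.14 and 10.80 in TK6, 10.96 and 10.71 in MT1 and 9.80 to 10.32 (median 10.02) in the panel, and CEBPG, another partner of ATF4, at 8.49 and 8.58 in TK6, 8.30 and 8.42 in MT1 and 7.06 to 7.96 (median 7.63) in the panel. Both lines lay above every panel line for these 4. For some genes of the list only TK6 was outside. The cystathionine synthase CBS was at 9.34 and 9.33 in TK6, 6.35 and 6.21 in MT1 and 5.34 to 8.29 (median 5.83) in the panel and the secreted hormone STC2 at 9.38 and 9.32 in TK6, 7.38 and 7.25 in MT1 and 5.19 to 7.65 (median 6.04) in the panel. ATF4 itself was at 12.25 and 12.04 in TK6, 11.51 and 11.23 in MT1 and 10.69 to 11.75 (median 11.15) in the panel and asparagine synthetase ASNS at 11.41 and 11.27 in TK6, 10.01 and 9.92 in MT1 and 8.87 to 10.65 (median 9.73) in the panel, and neither passed the test. TK6 lay above and MT1 within the panel for these 4.

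Genes of G2 and mitosis lay high in both lines. Of 45 tested genes, 26 lay above the panel range (57.8%, against 12.9% of all genes), 20 of them in every array, and 0 lay below. The test called 13 higher and 0 lower, and 12 of the 13 were above the range. The median difference was 0.59, and over the alternatives 0.48 to 0.82. AURKA, a kinase of the spindle pole, was at 10.74 and 10.49 in TK6, 10.75 and 10.51 in MT1 and 8.85 to 9.65 (median 9.28) in the panel, 1.39 ± 0.23 (adjusted p = 7.21e-05). UBE2C, the ubiquitin-conjugating enzyme of the anaphase-promoting complex, was at 11.39 and 11.70 in TK6, 11.44 and 11.79 in MT1 and 9.30 to 10.57 (median 10.04) in the panel, 1.55 ± 0.32 (adjusted p = 0.00101). CDK1, the kinase that drives mitosis, was at 10.97 and 10.91 in TK6, 11.10 and 11.18 in MT1 and 9.69 to 10.52 (median 10.23) in the panel, 0.84 ± 0.21 (adjusted p = 0.00491). The groups did not overlap in any array for these 3.

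The same held for genes of several mitotic machines. CENPF, a protein of the kinetochore, was at 10.04 and 10.05 in TK6, 10.34 and 10.07 in MT1 and 8.49 to 9.47 (median 9.11) in the panel, and HMMR, which binds spindle microtubules, at 10.46 and 10.30 in TK6, 10.61 and 10.46 in MT1 and 9.37 to 10.05 (median 9.82) in the panel. CKS1B, a subunit of cyclin-dependent kinase complexes, was at 11.22 and 10.96 in TK6, 11.35 and 11.02 in MT1 and 8.88 to 10.24 (median 9.95) in the panel. The checkpoint kinase TTK was at 9.04 and 8.87 in TK6, 9.11 and 9.11 in MT1 and 7.83 to 8.64 (median 8.39) in the panel. FOXM1, the transcription factor of this programme, reached 8.12 and 8.59 in TK6 and 8.55 and 9.20 in MT1 against 7.14 to 8.37 (median 7.63), called higher (0.92 ± 0.31) but not outside the range. Its call ended under 6 of 44 alternatives, among them without the second array of TK6 or of MT1. AURKA and UBE2C lie on chromosome 20, and the 26 genes lie on 11 chromosomes, with 0 on chromosome 13.

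Genes of G1, S phase and replication showed no such shift: of 42, 2 were called higher (4.76%) and 5 lower (11.9%), against 10% and 11.6% of all genes. The median was -0.0067 (-0.080 to 0.23 over the alternatives). Cyclin E1, CCNE1, was at 6.39 and 6.31 in TK6, 6.91 and 6.79 in MT1 and 7.52 to 8.56 (median 8.16) in the panel, -1.51 ± 0.29 (adjusted p = 0.000495), and cyclin D2, CCND2, at 9.97 and 10.24 in TK6, 10.01 and 10.32 in MT1 and 10.64 to 11.92 (median 11.24) in the panel, -1.21 ± 0.39 (adjusted p = 0.0268). Cyclin A2, CCNA2, was above the range at 10.01 and 10.16 in TK6, 9.89 and 10.25 in MT1 and 8.23 to 9.59 (median 9.20) in the panel. CDKN1B, the inhibitor p27 that restrains CDK2, was higher at 10.44 and 10.32 in TK6, 10.20 and 10.16 in MT1 and 8.61 to 9.78 (median 9.09) in the panel, 1.17 ± 0.32 (adjusted p = 0.0102). TK1, the thymidine kinase that is heterozygous in TK6, was lower, at 7.05 and 7.27 in TK6, 6.79 and 7.19 in MT1 and 7.80 to 9.58 (median 8.75) in the panel, -1.69 ± 0.44 (adjusted p = 0.00696). The calls of CCND2 and CCNA2 ended after median-centring, and that of CCNA2 also without the second array of MT1. MYC was at 11.19 and 11.18 in TK6, 11.25 and 11.14 in MT1 and 9.65 to 11.19 (median 10.31) in the panel, at the top of the panel and not past the test (adjusted p = 0.0955).

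Oxidative phosphorylation had 16 called higher and 1 lower of 34, with 17 above the range (50%), 1 below it and a median of 0.27. CYC1, cytochrome c1 of complex III, was at 10.66 and 10.90 in TK6, 11.04 and 11.29 in MT1 and 9.54 to 10.26 (median 9.97) in the panel, 1.03 ± 0.19 (adjusted p = 0.00035). UQCRC1, a core subunit of the same complex, was at 10.96 and 11.19 in TK6, 10.96 and 11.17 in MT1 and 9.83 to 10.41 (median 10.22) in the panel, 0.90 ± 0.19 (adjusted p = 0.00134). NDUFB5 of complex I was at 11.45 and 11.20 in TK6, 11.44 and 11.36 in MT1 and 10.43 to 10.85 (median 10.71) in the panel, and COX5B of complex IV at 11.62 and 11.58 in TK6, 11.66 and 11.73 in MT1 and 11.14 to 11.35 (median 11.22) in the panel. All 4 arrays lay above the panel for these 4, whose panel lines spread over less than 1 log2 unit. SDHC of complex II was lower, at 9.51 and 9.53 in TK6, 9.32 and 9.20 in MT1 and 9.77 to 10.37 (median 10.17) in the panel, -0.77 ± 0.13 (adjusted p = 0.000157). The median of the oxidative phosphorylation list less that of all genes was 0.29 after quantile normalisation, 0.38 without normalisation and 0.37 after median-centring.

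Cholesterol and fatty acid synthesis had 6 called higher and 0 lower of 25, with 3 above the range (12%, against 12.9% of all genes). The median was 0.49 (0.45 to 0.75 over the alternatives), and MT1 (0.86) exceeded TK6 (0.34). The desaturase SCD was at 11.95 and 12.09 in TK6, 12.01 and 12.31 in MT1 and 10.00 to 11.52 (median 10.65) in the panel, 1.43 ± 0.43 (adjusted p = 0.0171). DHCR7, the last enzyme of cholesterol synthesis, was at 8.71 and 8.97 in TK6, 9.96 and 10.09 in MT1 and 7.48 to 8.96 (median 8.05) in the panel, with MT1 above the panel and TK6 at its upper end. The transcription factor SREBF2 was within the range at 8.64 and 8.97 in TK6, 9.16 and 9.51 in MT1 and 8.37 to 9.44 (median 8.88) in the panel. Of 38 cytosolic ribosomal proteins, 4 were called higher (10.5%, against 10% of all genes) and 0 lower with a median of 0.022. RPS21, on chromosome 20, was at 13.12 and 13.14 in TK6, 13.08 and 13.08 in MT1 and 12.71 to 12.94 (median 12.82) in the panel, and its call ended after median-centring. The paralogue RPL39L was at 9.42 and 9.31 in TK6, 9.11 and 9.13 in MT1 and 7.45 to 8.62 (median 8.02) in the panel.

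**Figure D4:**
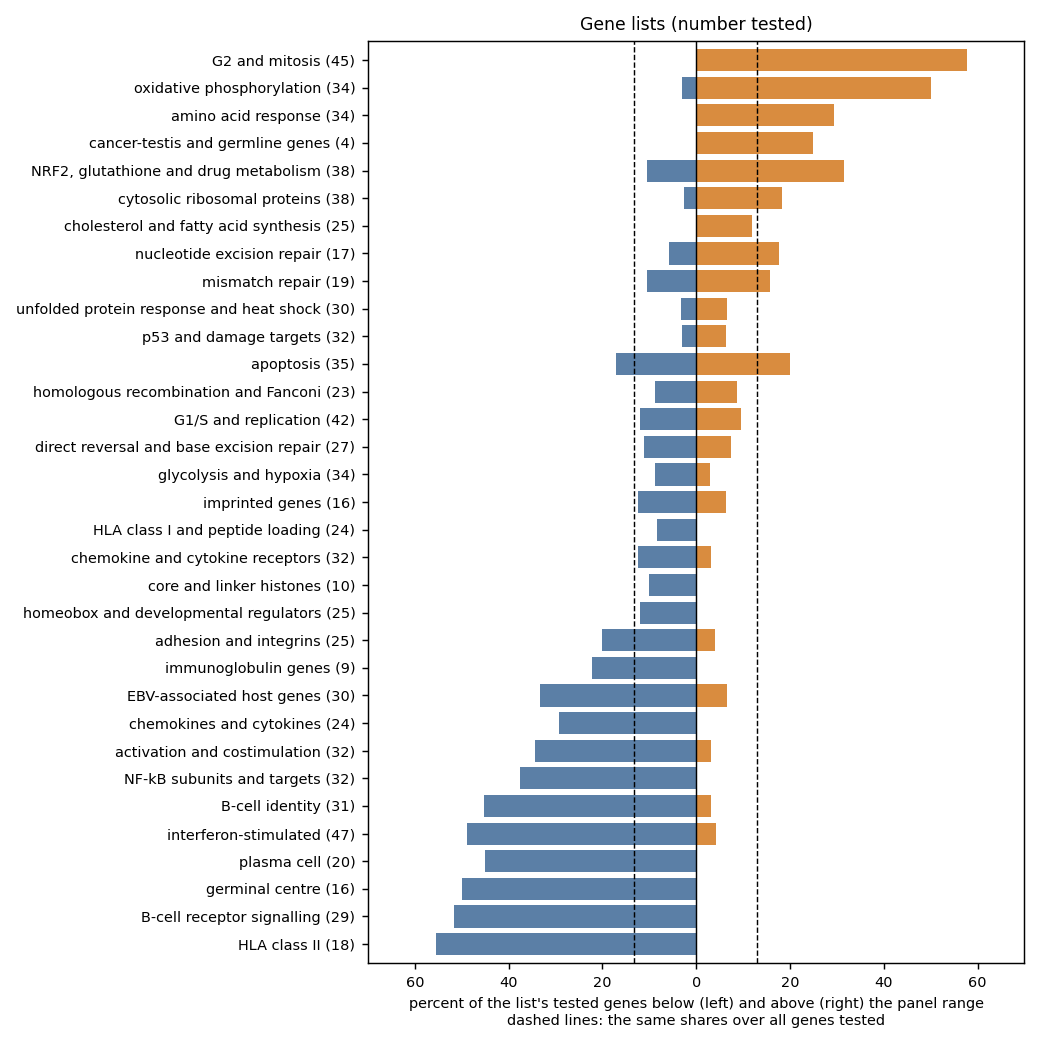
Percent of the tested genes of each list for which both TK6 and MT1 lay below (left) or above (right) the range of the 24 panel lines. The number tested is in brackets, and dashed lines mark the shares over all genes tested, 13.2% below and 12.9% above. HLA class II (55.6%), B-cell receptor signalling (51.7%), the germinal centre list (50%) and interferon-stimulated genes (48.9%) reach furthest to the left, and G2 and mitosis (57.8%) and oxidative phosphorylation (50%) furthest to the right.

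DNA repair, which the series was set up to relate to killing by MNNG, was measured through 4 lists. MGMT, the protein that removes methyl groups from guanine, was near the bottom in TK6 and MT1, at 5.18 and 5.16 in TK6, 5.17 and 5.28 in MT1 and 5.10 to 8.47 (median 7.54) in the panel. The panel reached this level too, so the lines were not outside the range, and the difference of -1.99 ± 0.92 did not pass (adjusted p = 0.127). MSH6, which recognises mismatches, was at 9.41 and 9.54 in TK6, 9.34 and 9.37 in MT1 and 8.83 to 9.78 (median 9.32) in the panel, and the glycosylase MPG, which removes methylated purines, at 7.97 and 8.19 in TK6, 7.45 and 7.86 in MT1 and 7.53 to 8.41 (median 7.95) in the panel. Both lay inside the panel in most arrays. Of 19 mismatch repair genes, 3 were called higher (HMGB1, RFC3 and RFC4; 15.8%) and 2 lower (MSH3 and POLD4; 10.5%), against 10% and 11.6% of all genes. MSH3 was at 10.06 and 10.88 in TK6, 10.33 and 10.66 in MT1 and 10.62 to 10.99 (median 10.80) in the panel, and its call ended under 9 of 44 alternatives, among them without the first array of TK6 or of MT1. That of POLD4 ended under 6, and those of HMGB1 and RFC4 after median-centring. SPATC1L, a gene of little known function, was above the range at 8.28 and 8.75 in TK6, 8.59 and 9.15 in MT1 and 5.48 to 7.48 (median 6.80) in the panel, 2.02 ± 0.51 (adjusted p = 0.00527).

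In direct reversal and base excision repair, 1 of 27 genes was called higher and 3 lower. UNG, which removes uracil, was at 6.81 and 6.91 in TK6, 7.63 and 7.79 in MT1 and 8.25 to 9.13 (median 8.57) in the panel, -1.32 ± 0.26 (adjusted p = 0.000743), and TDG, which removes thymine mispaired with guanine, at 8.62 and 8.35 in TK6, 8.69 and 8.44 in MT1 and 8.87 to 9.77 (median 9.48) in the panel, -0.90 ± 0.20 (adjusted p = 0.00186). PARP1, the sensor of strand breaks, was at 9.75 and 9.87 in TK6, 9.95 and 10.18 in MT1 and 10.25 to 10.80 (median 10.58) in the panel, below every panel line. The calls of TDG and PARP1 ended after median-centring. NTHL1, a glycosylase for oxidised pyrimidines, was the higher one (0.73 ± 0.23), and its call ended under 3 of 44 alternatives, unnormalised values among them. HMCES, which shields abasic sites, belongs here by function though it was listed with germinal centre genes, and was at 5.25 and 5.35 in TK6, 5.38 and 5.43 in MT1 and 6.58 to 8.36 (median 7.62) in the panel. In nucleotide excision repair 1 of 17 was called higher and 0 lower, and in homologous recombination and the Fanconi pathway 1 (UBE2T, 1.12 ± 0.27) and 2 of 23. In these 3 lists the shares called were below or near the 10% higher and 11.6% lower over all genes.

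Targets of p53 and apoptosis genes were also mixed. Of 32 damage targets 2 were called higher (6.25%) and 1 lower (3.12%), against 10% and 11.6% of all genes. CDKN1A, the inhibitor p21, was at 9.51 and 9.61 in TK6, 9.02 and 9.06 in MT1 and 9.30 to 11.55 (median 10.19) in the panel, within the panel in TK6 and under it in MT1. MDM2 was at 9.17 and 9.42 in TK6, 9.12 and 9.48 in MT1 and 9.07 to 10.40 (median 9.48) in the panel, within the panel in both lines. TNFRSF10B, a receptor for TRAIL, was above the range at 10.27 and 10.08 in TK6, 10.25 and 10.11 in MT1 and 8.80 to 9.79 (median 9.32) in the panel, 0.87 ± 0.27 (adjusted p = 0.0216), and its call ended under 2 of 44 alternatives. Of 35 apoptosis genes 5 were called higher (14.3%) and 3 lower (8.57%), with 7 above and 6 below the range (20% and 17.1%). Over all genes 12.9% lay above the range and 13.2% below it, so these shares were near those of all genes. MCL1, a survival protein, was at 9.24 and 9.26 in TK6, 9.48 and 9.55 in MT1 and 9.78 to 10.97 (median 10.42) in the panel, and DIABLO, which blocks inhibitors of caspases, at 9.78 and 9.39 in TK6, 9.75 and 9.38 in MT1 and 8.71 to 9.22 (median 8.96) in the panel. The direction of the medians of the repair, p53, apoptosis, G1/S, glycolysis and NRF2 lists turned with the scaling or another setting, except that of nucleotide excision repair (0.034 to 0.31).

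Other lists had few members outside the range. Over all genes 10% were called higher and 11.6% lower. The shares were smaller in the unfolded protein list (6.67% and 3.33%), the imprinted list (6.25% and 6.25%) and the homeobox list (4% and 8%). The unfolded protein and heat shock list had CRELD2 lower (-1.93 ± 0.45) and SERPINH1 (1.30 ± 0.27) and DNAJB1 (1.22 ± 0.34) higher, of 30. In the glycolysis and hypoxia list, hexokinase HK1 was at 7.43 and 7.54 in TK6, 5.51 and 5.43 in MT1 and 8.72 to 10.15 (median 9.53) in the panel, -3.00 ± 0.32 (adjusted p = 1.19e-07). TK6 and MT1 both lay below every panel line, MT1 by far the lower. Of 16 imprinted genes PEG10 was called higher (1.90 ± 0.45) and PLAGL1 lower (-1.96 ± 0.47). Of 25 homeobox and developmental regulators 1 was called higher and 2 lower, and of 4 tested cancer-testis genes SPA17 was called higher (0.63 ± 0.22) and MAGED1 lower. MAGED1 was at 10.35 and 10.15 in TK6, 6.14 and 5.60 in MT1 and 9.23 to 10.45 (median 10.01) in the panel, within the panel in TK6 and far below it in MT1.

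Genes above the range were unevenly spread over the chromosomes. On chromosome 13, 30.4% of 171 tested genes lay above the range and 7.02% below, and on chromosome 20 30.6% of 252 and 7.94%. The median differences were 0.35 and 0.29, against -0.018 over all genes. On chromosome 13 the median was 0.30 in TK6 and 0.39 in MT1, and single panel lines, each against the mean of the panel, were at -0.093 to 0.11. On chromosome 20 it was 0.26 in TK6 and 0.31 in MT1, and the panel lines were at -0.050 to 0.038. TK6 and MT1 thus lay above all panel lines in both. They did so by less on chromosomes 3 (0.080 and 0.15, panel at most 0.044) and 16 (0.17 and 0.092, panel at most 0.080), and both lay below all panel lines on chromosomes 2, 6, 7, 14, 15 and 22, with medians down to -0.13. The 2 chromosomes held 129 of the 1113 genes above the range and 423 of the genes tested. The chromosome medians were computed only after quantile normalisation, and no other scaling was tried for them. The median difference of all genes was -0.11 without normalisation and 0.16 after median-centring. Small shifts, such as those of the chromosomes below the panel lines, may therefore depend on the scaling. DNA copy number was not analysed here.

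In blocks of 25 neighbouring tested genes, ordered by their place in RefSeq, 7 of 7 blocks of chromosome 13, 8 of 10 of chromosome 20, 13 of 15 of chromosome 16 and 14 of 20 of chromosome 3 had a median above 0. Of 328 blocks 14 had a median over 0.3, 13 of them on chromosomes 3, 13, 16 and 20. The highest was on chromosome 3, from MSL2 to PLOD2, at 0.75 with 12 of 25 genes above the range. On chromosome 20 the block from AHCY to AAR2 was at 0.61, with 17 of 25 above. AHCY, which hydrolyses S-adenosylhomocysteine after methylation reactions, was at 11.32 and 11.43 in TK6, 11.23 and 11.38 in MT1 and 9.33 to 10.22 (median 9.81) in the panel, 1.50 ± 0.26 (adjusted p = 0.000125). The lowest block ran from HLA-DRA to B3GALT4 on chromosome 6, at -0.83 with 13 of 25 below the range, and includes genes of the HLA class II list.

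**Figure D5:**
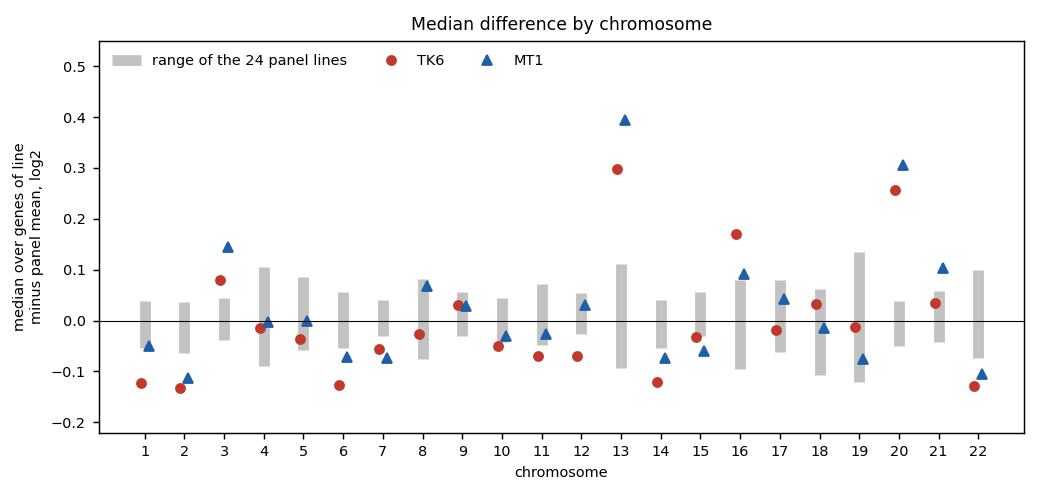
Median over the tested genes of each autosome of a line's level minus the panel mean, log2. Points are TK6 and MT1, and grey bars span the 24 panel lines treated the same way. TK6 and MT1 lie far above the bars on chromosomes 13 and 20, less far on 3 and 16, and both lie below the bars on 6 chromosomes.

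Markers of other cell types were set beside these results. The mean level of 9 B-cell markers was 9.84 in TK6 and 8.60 in MT1, against 9.73 to 10.64 in the panel, so TK6 lay within the panel and MT1 below it. The 14 T-cell markers, LCK among them, were at 5.73 and 5.66 (panel 5.99 to 6.59), and CD3G was near the bottom in all lines, at most 5.38 in the panel. None of the 14 reached a level of 7 in TK6 or MT1, but 5 did in the panel. Their highest panel lines were at 10.60 for LCK, 9.19 for CD6, 8.98 for TRBC1, 7.99 for CD28 and 7.88 for CD2. NK-cell markers were at 5.88 and 5.76 (5.64 to 5.94), and 1 of 12 reached 7 in TK6 or MT1. This was NKG7, at 9.09 and 9.05 in TK6, 6.06 and 6.22 in MT1 and 5.33 to 7.01 (median 5.70) in the panel, above the panel in TK6 and within it in MT1. Myeloid markers were at 5.87 and 5.74 (5.64 to 6.06), and 2 of 14 reached 7, CD163 and LYZ, while CD14 was at most 6.04 in any line. CD163 was within the panel at 7.91 and 8.04 in TK6, 7.91 and 8.00 in MT1 and 6.83 to 8.21 (median 7.66) in the panel. Fibroblast markers were at 6.18 and 6.10 (5.98 to 6.26), and 3 of 15 reached 7. These were ACTA2, at 8.70 and 8.87 in TK6, 8.38 and 8.59 in MT1 and 8.11 to 9.82 (median 9.24) in the panel, COL1A1, at 7.40 and 7.30 in TK6, 7.35 and 6.42 in MT1 and 6.41 to 7.29 (median 6.91) in the panel, and TAGLN, at 7.10 and 6.86 in TK6, 7.03 and 7.22 in MT1 and 6.63 to 7.36 (median 7.05) in the panel, while COL3A1 was near the bottom throughout. Epithelial markers were at 6.10 and 5.98 (5.69 to 6.14). Of 16, 2 reached 7 in TK6 or MT1, KRT8 and KRT7, and 4 did in the panel. KRT8 was above the panel. KRT7 was not outside it, at 7.42 and 6.88 in TK6, 7.56 and 6.80 in MT1 and 6.95 to 7.49 (median 7.30) in the panel. CDH1 was at 6.79 and 6.38 in TK6, 5.36 and 5.53 in MT1 and 5.17 to 9.96 (median 6.50) in the panel. EPCAM, KRT19 and the partner keratin KRT18 were near the bottom in TK6 and MT1. Neural markers were at 6.23 and 6.28 (6.02 to 6.25), within the panel in TK6 and above it in MT1. Of 13, 2 reached 7. ENO2 was at 9.71 and 10.04 in TK6, 8.60 and 8.97 in MT1 and 7.06 to 8.86 in the panel. TUBB3 was at 9.15 and 9.52 in TK6, 9.88 and 10.32 in MT1 and 9.82 to 11.23 in the panel. By line means TK6 was above the panel for ENO2 and below it for TUBB3, and MT1 was within it for both. In bulk RNA, fewer cells of a type and less RNA per cell cannot be told apart.

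Erythroid and megakaryocyte markers averaged 6.23 in TK6 and 6.61 in MT1, against 6.06 to 6.43 in the panel. Globin genes differed among themselves, of which HBE1 is not one of these markers and does not enter the averages. HBB, the adult beta globin, was within the panel in TK6 and at its upper end in MT1, at 7.63 and 7.89 in TK6, 8.31 and 8.26 in MT1 and 6.13 to 8.28 (median 7.68) in the panel. HBE1, the embryonic beta-like globin, was at 10.54 and 10.49 in TK6, 7.15 and 6.86 in MT1 and 5.34 to 5.83 (median 5.50) in the panel, 3.24 ± 0.25, and passed the filter only through TK6 and MT1. HBD, the delta globin, which did not pass the filter, was at 6.83 and 6.59 in TK6, 11.59 and 11.48 in MT1 and 5.29 to 5.82 (median 5.43) in the panel. HBE1 was highest in TK6 and HBD in MT1, and both lines were above the panel for both. HBE1 and HBD were named after their values were seen. GATA1 and KLF1, the factors of the erythroid lineage, were at 6.00 and 5.82 in TK6, 5.89 and 5.46 in MT1 and 5.57 to 6.24 (median 5.92) in the panel and 5.30 and 5.19 in TK6, 5.18 and 5.31 in MT1 and 5.21 to 5.49 (median 5.33) in the panel. The transferrin receptor TFRC, which the list also holds, was lower at 10.37 and 10.06 in TK6, 10.22 and 10.01 in MT1 and 11.48 to 12.36 (median 11.96) in the panel.

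For 57 genes (0.661%) TK6 and MT1 lay beyond opposite ends of the panel range, TK6 high and MT1 low in 34 and the reverse in 23. Of the 34 tested genes of the glycolysis and hypoxia list 5 were among them (14.7%), a count made after the genes were seen and not tested. EGLN1, the prolyl hydroxylase that marks HIF1A for destruction, was at 10.19 and 10.27 in TK6, 7.01 and 7.18 in MT1 and 7.82 to 9.38 (median 8.52) in the panel. BNIP3 and BNIP3L, which direct mitochondria to degradation, were at 11.16 and 10.99 and 10.44 and 10.91 in TK6 and at 8.11 and 7.97 and 7.67 and 8.15 in MT1, against 9.15 to 10.91 (median 9.91) and 8.43 to 10.57 (median 9.48) in the panel. The kinase PDK1, which diverts pyruvate from mitochondria, was at 9.76 and 9.86 in TK6, 7.43 and 7.66 in MT1 and 7.83 to 9.34 (median 8.34) in the panel. TK6 was above and MT1 below the panel in each of these, in BNIP3L by means and not in every array. HIF1A, the oxygen-regulated factor itself, was lower in both lines, at 9.88 and 9.77 in TK6, 7.82 and 7.64 in MT1 and 9.84 to 10.63 (median 10.28) in the panel, and the median of the glycolysis and hypoxia list was 0.37 in TK6 and -0.46 in MT1. Outside this list the immune checkpoint ligand CD274 was at 9.91 and 9.62 in TK6, 7.30 and 6.99 in MT1 and 7.63 to 9.28 (median 8.32) in the panel and NRN1 at 9.31 and 9.36 in TK6, 5.26 and 5.19 in MT1 and 5.24 to 8.60 (median 5.53) in the panel. For NRN1 both MT1 and the panel median were near the bottom, and 1 array of MT1 lay over the lowest panel line. The place of MT1 under the panel therefore means little for NRN1.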

How the data were processed

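Untreated cultures of 26 lymphoblastoid lines were measured on 52 oligonucleotide arrays, 2 a line. The deposited values are probe set intensities on a linear scale, summarised by the authors with PLIER, per the submitters' processing notes, which state no version here. They run from 16 up to a ceiling of 65535, which 42 values in these arrays reach. Of 54675 probe sets, 41097 have 1 gene symbol in the platform annotation, 1801 several and 11777 none. Genes were named only from those with 1 symbol, and 73 probe sets were left out. Arrays have no read depth, and their number limits the precision.

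Computed here: log2(intensity + 16), quantile normalisation over the 52 arrays, the mean of each line's duplicates, and the probe set with the highest mean for each gene. Differences are on this log2 scale, which understates changes of dim genes. Genes were kept where at least 2 of 26 lines reached 7. Fits used limma 3.58.1 (lmFit, and eBayes with a trend) in R 4.3.3, with version 1.17.8 of data.table, and adjusted p is Benjamini-Hochberg over 8624 genes. Figures used matplotlib 3.10.9 in Python 3.11.15. Tested on simulated data for this comparison over 8624 genes, with 200 changed, changes of 1, 2 and 4 log2 units were recovered for 55%, 81% and 97.5%. Promoter sequences are from RefSeq (GRCh38.p14). Chromosomes and gene order are from RefSeq, with sex chromosomes left out.

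The comparison, its members and the gene lists were chosen with earlier results of these data known, so list counts are descriptions. Named genes were the 15 with the largest gap on each side, up to 4 of each list outside the range with the largest gap, up to 6 beyond opposite ends, a fixed set (among them MGMT, MSH6, MPG, SPATC1L, PAX5, CD40, MDM2 and MYC) and the genes nearest each edge of the range. A further 59 were named for their role, and the metallothioneins, HBD, GATA1 and KLF1 as well, after their values were seen. Alternatives concerned the pseudocount, the scaling, the filter, the choice of probe set, the unit, left-out arrays and lines, and the array median.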

Additional observations from a re-analysis of the deposited data

Results flagged for a closer look

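In TK6 and MT1 the same comparison with the panel gave opposite results for 20 of the 57 genes beyond opposite ends of the range, in that every array of one line lay above all panel lines and every array of the other below. Named among them were 5, chosen by the size of the difference or, for PDK1, for its role, and TK6 was the higher line in each. TK6 minus MT1 was 3.13 for EGLN1, 3.03 for BNIP3, 2.81 for RIPOR1, 2.62 for CD274 and 2.27 for PDK1, on the log2 scale. The difference between the lines was not tested, since each line is 1 culture lineage with 2 arrays.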

How the results depend on the processing

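The 3 counts of called genes and the count outside the range stayed within 1.5 times of the reported ones under all alternatives but 3. Treating TK6 and MT1 as 2 units gave 3390 calls, single arrays in place of line means gave 1354 genes outside the range, and a gap of at least 0.5 gave 590. Leaving out arrays or lines gave 1496 to 1927 calls for both lines together, 1645 to 2269 for TK6, 1827 to 2377 for MT1 and 2007 to 2318 genes outside the range. A further fit took single arrays, with the line as a random block and the replicate number as a fixed term (a replicate block). TK6 and MT1 together formed 1 block. This fit called 2162 genes, 1666 of them shared with the 1867, and 2172 and 2270 for TK6 and MT1 alone. Duplicates with the same number deviated together in some pairs of lines (correlations over 325 pairs from -0.394 to 0.762, 161 above 0.1), among them TK6 with MT1 (0.471), and replicate 1 had the higher array median in 21 of 26 lines. The labels tie the number to nothing shared, so outside the replicate block it was not treated as a pairing. Keeping only the 12 panel lines with the lower array medians, or the other 12, an alternative chosen after seeing the data, gave 1762 and 1885 calls.

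Of 217 genes followed, 142 kept their side of the threshold and their sign under every alternative, 41 lost a call under at least 1 and 28 gained one. Signs turned for genes near 0 that were not called. After median-centring the differences were 0.13 for EBI3, 0.039 for MDM2, 0.074 for MPG, 0.19 for B2M, 0.24 for HLA-B and 0.066 for HLA-DRA. With the array median as a covariate they were 0.22 for EBI3 and -0.32 for IFIT3, and against the 12 lines with lower array medians 0.084 for EBI3 and -0.35 for IFIT3. Over left-out arrays and lines MDM2 ran from -0.28 to 0.50, MT1E from -0.96 to 0.077, HLA-B from -0.050 to 0.051 and MPG from -0.20 to 0.0057, and the mean of all probe sets turned HLA-B (0.0061). List medians turned beyond the spread of the panel lines for imprinted genes (-0.019 on values as deposited, -0.0082 with the mean of all probe sets) and for NK-cell markers (0.051 without the filter, 0.24 with the mean of all probe sets). The medians of the unfolded protein list (-0.19 to 0.078), the homeobox list (-0.35 to 0.23) and myeloid (-0.67 to 0.46), fibroblast (-0.39 to 0.14) and epithelial markers (-0.33 to 0.13) also took both signs. The cause was not tested. A level near the bottom of the scale limits the differences of 409 genes below and 50 above the range.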
